A study of Malus x robusta with 27 samples.

Results

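The ribonuclease T2 genes of Malus × robusta flowers are described here through the 10 most highly expressed of the 20 genes whose Pfam description names the ribonuclease T2 family, among 48445 genes measured. These 10 were selected on their mean FPKM (fragments scaled by gene length and by a denominator for each library) over all 27 libraries, so their rank and level are the selection itself and not a result. Strongly fragrant progeny flowers (SF), weakly fragrant progeny flowers (WF) and standard Malus robusta flowers (Mr) were each sampled as whole flowers at 3 stages, with 3 replicates at each stage. The stages were the early balloon stage (EB, labelled as small balloon), the early flowering stage (ES, petals opening and stamens not yet dehisced) and the late flowering stage (LS, petals open and stamens dehisced). SF and WF were each 1 individual selected from the progeny of Mr, and the Mr trees were 7 years old, so every difference between materials is a difference between these few trees. The labels name no treatment.

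Ribonucleases of the T2 family cut single-stranded RNA and are secreted or sent to the vacuole. In plants they include the S-RNases, which are made in the style and are the female determinant of self-incompatibility in apple and its relatives, and the S-like RNases, which are known for recycling phosphate from RNA under phosphate starvation, in senescence and after wounding. An S-RNase enters the growing pollen tube and stops it unless F-box proteins of the pollen mark it for removal. The DOMON and cytochrome b561 domains, found beside the T2 domain in some of these genes, are known from membrane proteins that carry electrons with ascorbate.

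Whether any of the 10 is an S-RNase could not be checked. The gene table describes genes by protein domain only, a T2 domain does not separate S-RNases from S-like RNases, and no sequence of these genes was used. In apple the S locus lies on chromosome 17, and 0 of the 20 genes lie there in the HFTH1 apple genome that the reads were mapped to. F-box genes, which flank an S-RNase at the S locus, were counted within 500 kb of each gene. These windows held 71 to 127 genes. F-box genes near genes outside the 10 were not counted, so the counts have no background beside them. HF10711 and HF10710 had 2 within that distance, the higher being HF10746 at a mean of 8.18 FPKM. HF30379 also had 2, the higher being HF30416 at 6.14 FPKM, HF30376 had 1 of 1.64 FPKM, and the other 6 genes had 0. HF35058, among these 6, lies on unplaced sequence, so its chromosome and its true neighbours are not known. The genes are therefore called ribonuclease T2 genes below. Reads of an allele that differs strongly from the HFTH1 genome may not have been counted, and their number was not measured.

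The libraries held 16146228 to 29558381 fragments on genes, with a median of 19419905. The denominator behind the deposited FPKM was 0.8855 to 1.1034 times these totals. It was 1.0816 to 1.0893 times the total in Mr at EB and 0.8904 to 1.0 times the total in Mr at ES. Of the 48445 genes, 29660 reached an FPKM of 1 in 3 or more libraries and were tested. Genes that were nearly silent in 1 material and expressed in another showed that 2 libraries stood apart from their labels. Over 70 such genes, SF replicate 1 at LS held a median of 7.57% of the WF level, and over 83 genes it held 3.72% of the Mr level. Over 138 genes Mr replicate 2 at LS held 16.8% of the WF level, and over 168 genes it held 6.79% of the SF level. Calls of members that rest on these libraries are given with and without them, whereas 95% intervals and the counts of other gene families include them. Flowers were sampled whole, so fewer cells of a type and less RNA per cell cannot be told apart. The summed level of the 35 Ole e 1 pollen protein genes was 7614 to 8871 FPKM in SF at EB, 4397 to 7726 FPKM at ES and 1385 to 2260 FPKM at LS, and it was lowest at LS in WF and Mr as well.

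Of the 10 genes, 6 passed the expression filter, and they carried nearly all of the family's RNA. Of the mean FPKM summed over the 20 genes, HF36240 made up 34.7%, HF10711 33.3%, HF10710 12.1%, HF42439 10.7%, a newly assembled gene beside HF42439 4.41% and HF30379 4.12%. Together these 6 made up 98.4% to 100% of the sum in every library. Such shares rest on FPKM and so on gene length. HF10711, of 474 bp, had 17166 fragments over all libraries, against 17365 for HF10710 and 73581 for HF36240. The length of the newly assembled gene need not be a coding length, since only 33.4% of the lengths of new genes are multiples of 3. The remaining 4 members (HF07516, HF35058, HF30376 and HF42438) and the other 10 genes of the family failed the filter and made up 0.562% among them. The member of lowest mean was HF42438 at 0.147 FPKM, and the gene just outside the 10 was HF30370 at 0.120 FPKM. The sum over the 10 members was lowest in Mr at EB, where it was 138 to 146 FPKM, and it lay between 159 and 298 FPKM in the libraries of the other 8 groups.

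**Figure D1:**
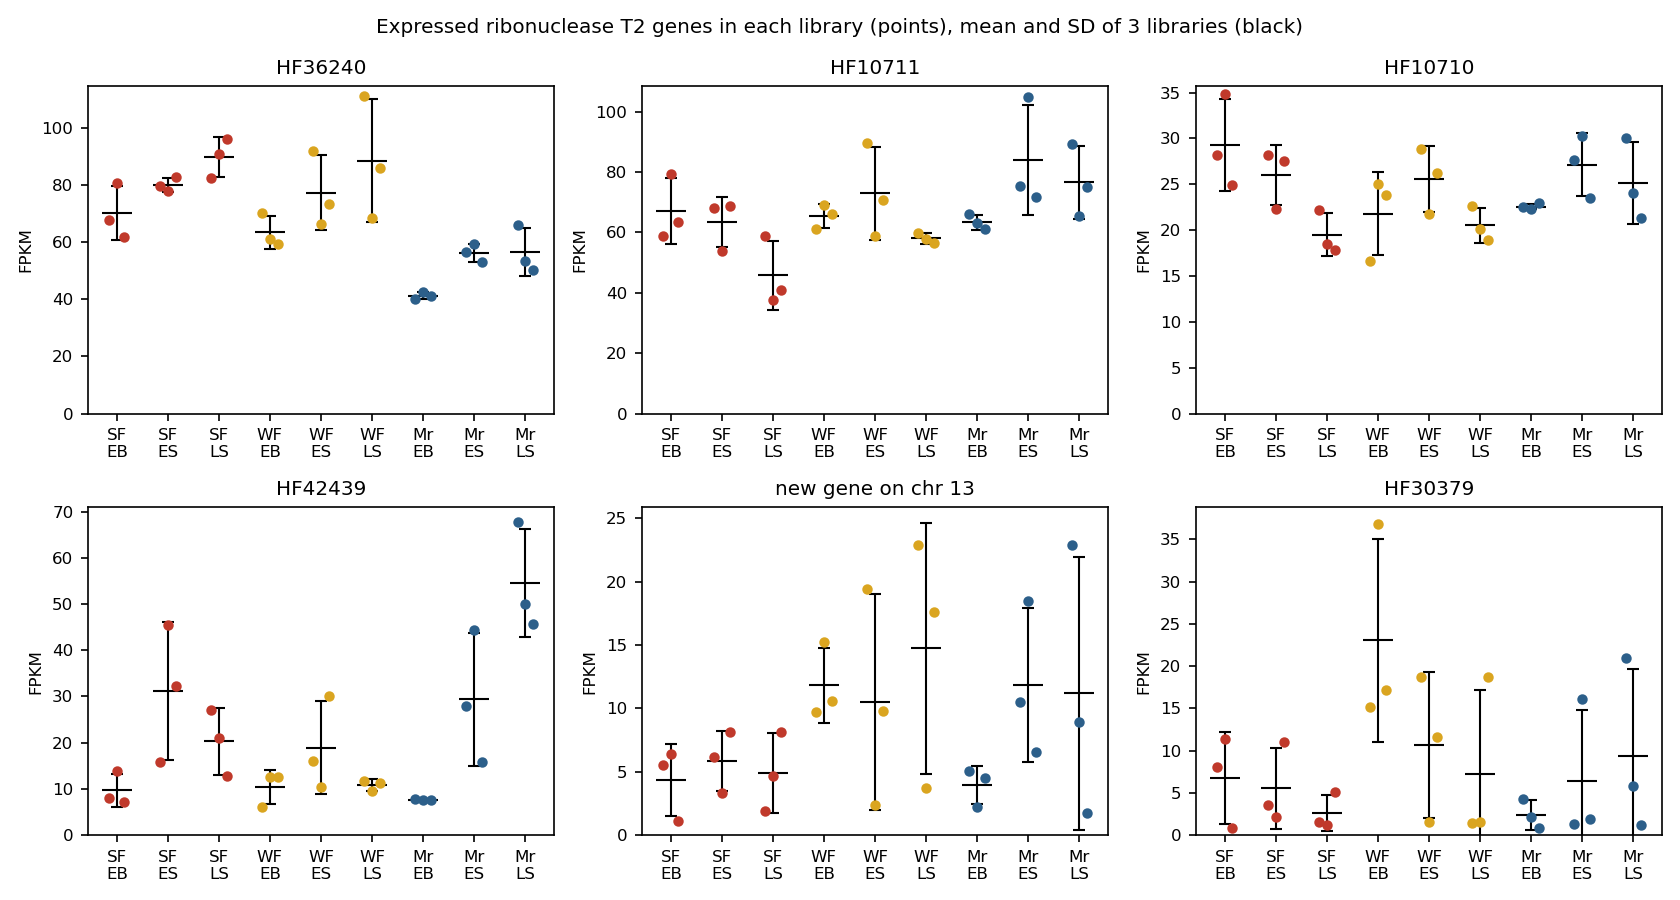
FPKM (y axis) of the 6 ribonuclease T2 genes that passed the expression filter, by material and stage (x axis). Points are single libraries and black lines are the mean and SD of 3 libraries, cut at 0. For HF36240, the Mr libraries were below all SF and WF libraries of the same stage at all 3 stages. HF42439 was highest in Mr at LS, and the new gene on chromosome 13 and HF30379 varied widely among replicates.

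HF36240 lies on the minus strand of chromosome 10 (HFTH1 build, 24232725 to 24239123) and its coding length is 1962 bp. Its gene model joins a T2 domain to DOMON and cytochrome b561 domains, and HF10710 is the only other of the 7 DOMON genes in the table that also holds a T2 domain. In SF it measured 67.8, 80.6 and 61.9 FPKM at EB, while the ES libraries had 79.5, 77.7 and 82.6 and the LS libraries had 82.2, 90.6 and 96.0. In WF it measured 70.0, 60.9 and 59.3 FPKM at EB, while the ES libraries had 91.8, 66.4 and 73.4 and the LS libraries had 111, 68.4 and 86.0. The Mr libraries were lower, at 40.2, 42.4 and 41.1 FPKM at EB, while the ES libraries had 56.6, 59.2 and 52.9 and the LS libraries had 65.9, 53.2 and 50.3. No Mr library reached the level of any SF or WF library of its own stage. Such a lack of overlap between SF and Mr was common, with 56.5%, 50.8% and 50.8% of all tested genes at EB, ES and LS. Between WF and Mr it held for 52.0%, 44.8% and 45.2%. Ordered by group mean, the 3 Mr groups came last, and only Mr at EB (41.2 ± 1.10 FPKM, SD, n = 3) was separated from the next group without overlap.

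HF10711 and HF10710 are neighbours on the minus strand of chromosome 5, at 28568689 to 28569829 and at 28563213 to 28568650, with 38 bp between them. HF10711 has a coding length of 474 bp and a T2 domain alone, whereas HF10710 has 1320 bp and a T2 and a DOMON domain. The genes next to them follow the same order of domains as those next to HF36240 on chromosome 10. In both places a triose-phosphate transporter gene, an ankyrin repeat gene, a gene with no described domain and a leucine zipper gene stand in a row before the T2 gene. How fragments were divided between adjoining gene models, or between copies of like sequence, is not given in the sources used here, and the split among these 3 genes is uncertain to that extent.

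HF10711 measured 58.7, 79.3 and 63.4 FPKM in SF at EB, while the ES libraries had 68.0, 53.9 and 68.7 and the LS libraries had 58.7, 37.6 and 41.0. In WF it measured 61.2, 69.1 and 66.2 FPKM at EB, while the ES libraries had 89.5, 58.8 and 70.7 and the LS libraries had 59.9, 57.8 and 56.4. In Mr it measured 66.0, 63.1 and 61.1 FPKM at EB, while the ES libraries had 75.3, 105 and 71.9 and the LS libraries had 89.3, 65.4 and 75.0. The 3 SF libraries at LS were all below the 3 Mr libraries at LS, and SF replicate 1 at LS, one of the libraries that stood apart, was the highest of the SF libraries there. Between SF and Mr at LS, 50.8% of all tested genes did not overlap.

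HF10710 measured 28.2, 34.8 and 24.9 FPKM in SF at EB, while the ES libraries had 28.2, 22.3 and 27.5 and the LS libraries had 22.2, 18.5 and 17.8. In WF it measured 16.6, 25.0 and 23.8 FPKM at EB, while the ES libraries had 28.8, 21.7 and 26.2 and the LS libraries had 22.6, 20.1 and 18.9. In Mr it measured 22.5, 22.3 and 22.9 FPKM at EB, while the ES libraries had 27.6, 30.3 and 23.5 and the LS libraries had 30.0, 24.0 and 21.3. Each of its 9 groups overlapped the next in order of mean, from 29.3 ± 5.02 FPKM in SF at EB down to 19.5 ± 2.34 FPKM in SF at LS (SD, n = 3 each). Groups further apart in that order did not all overlap. SF at LS was below SF at EB and at ES, and Mr at EB was below SF at EB and Mr at ES. In these comparisons 41.0%, 44.8%, 56.5% and 57.0% of all tested genes did not overlap.

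Over the 27 libraries, log2(FPKM + 1) of HF10711 and HF10710 had a Pearson's r of 0.74 and a Spearman's rho of 0.75, which is a description and not a test, since the libraries share groups and depth. Pearson's r was 0.71 without the 2 farthest libraries and 0.76 for deviations from the group means. The ratio of HF10711 to HF10710 was nonetheless lower in SF (2.04 to 2.65, median 2.41) than in WF (2.65 to 3.69, median 2.78) or Mr (2.66 to 3.51, median 2.93), with 9 libraries each. The highest SF ratio was that of replicate 1 at LS and was barely below the lowest WF ratio, both rounding to 2.65. This ratio was noticed after the values were seen and was not tested.

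**Figure D2:**
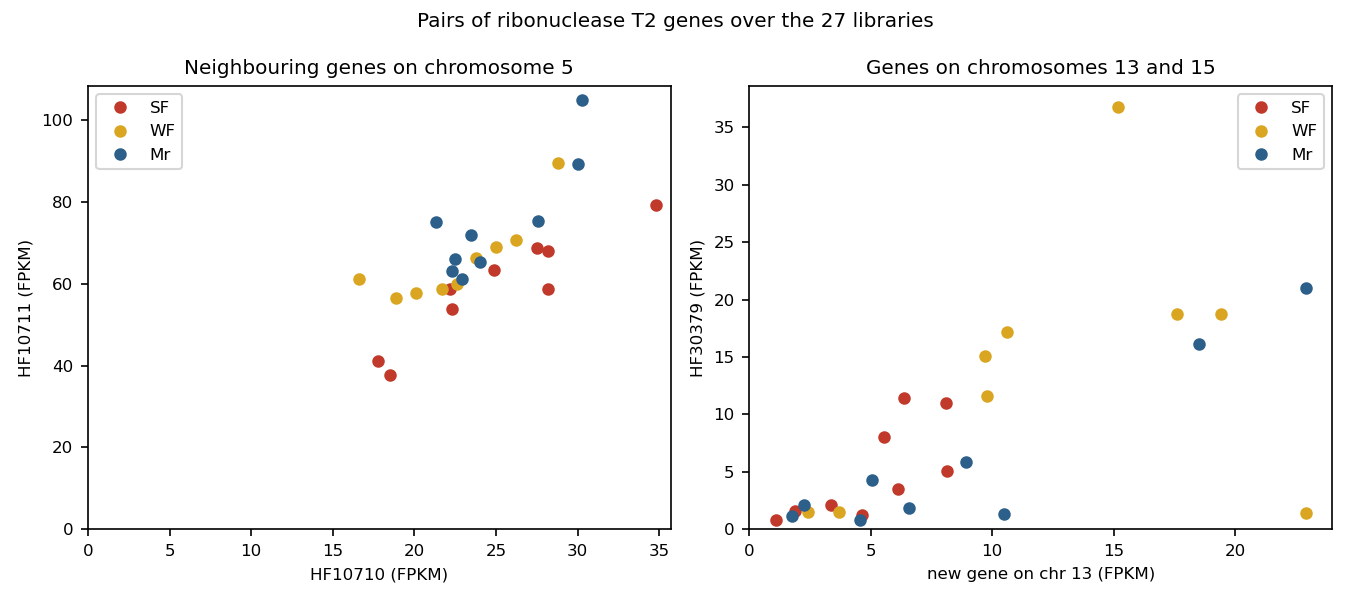
FPKM of pairs of ribonuclease T2 genes, each point being 1 of 27 libraries, colored by material. Left, HF10711 (y axis) against HF10710 (x axis), where SF points lie along a lower ratio (median 2.41) than WF (2.78) and Mr (2.93). Right, HF30379 (y axis) against the new gene on chromosome 13 (x axis), with a Pearson's r of 0.71 on the log2(FPKM + 1) scale.

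HF42439 (chromosome 13, minus strand, 4719072 to 4726098, 999 bp) has a T2 domain alone and its group means ran from 7.68 to 54.5 FPKM. It measured 8.06, 13.8 and 7.16 FPKM in SF at EB, while the ES libraries had 15.7, 45.5 and 32.3 and the LS libraries had 27.1, 21.1 and 12.7. In WF it measured 6.07, 12.5 and 12.5 FPKM at EB, while the ES libraries had 16.1, 10.5 and 30.1 and the LS libraries had 11.7, 9.45 and 11.3. In Mr it measured 7.88, 7.55 and 7.61 FPKM at EB, while the ES libraries had 27.9, 44.4 and 15.7 and the LS libraries had 67.8, 50.0 and 45.7. Every SF and WF library of any stage was below the 3 Mr libraries at LS, by a narrow margin in the case of the highest SF library at ES (45.5 FPKM, against 45.7 FPKM in the lowest of those Mr libraries). Within LS, 50.8% of all tested genes did not overlap between SF and Mr, and 45.2% between WF and Mr. At EB the 3 materials overlapped.

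The newly assembled gene lies 3167 bp from HF42439 on the same strand (4712408 to 4715904, 1006 bp) and also has a T2 domain alone. In SF it measured 5.55, 6.38 and 1.10 FPKM at EB, while the ES libraries had 6.14, 3.35 and 8.10 and the LS libraries had 1.90, 4.65 and 8.13. In WF it measured 9.69, 15.2 and 10.6 FPKM at EB, while the ES libraries had 19.4, 2.40 and 9.80 and the LS libraries had 22.9, 3.71 and 17.6. In Mr it measured 5.04, 2.24 and 4.54 FPKM at EB, while the ES libraries had 10.5, 18.5 and 6.59 and the LS libraries had 22.9, 8.91 and 1.75. At EB the 3 WF libraries were above all SF and Mr libraries, whereas at ES and LS WF overlapped both. Of all tested genes, 32.4% did not overlap between SF and WF at EB, and 52.0% between WF and Mr.

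HF30379 (chromosome 15, minus strand, 12889572 to 12890489, 672 bp) varied most among replicates of the 6 genes past the filter, with an SD of 52.0% to 138% of the mean in each group. It measured 8.06, 11.4 and 0.779 FPKM in SF at EB, while the ES libraries had 3.51, 2.09 and 11.0 and the LS libraries had 1.57, 1.19 and 5.09. In WF it measured 15.1, 36.8 and 17.2 FPKM at EB, while the ES libraries had 18.7, 1.51 and 11.6 and the LS libraries had 1.43, 1.53 and 18.7. In Mr it measured 4.29, 2.12 and 0.778 FPKM at EB, while the ES libraries had 1.34, 16.1 and 1.84 and the LS libraries had 21.0, 5.86 and 1.18. Its 3 WF libraries at EB were above all SF and Mr libraries of that stage, where 32.4% of all tested genes did not overlap between SF and WF, and 52.0% between WF and Mr. A newly assembled gene on the plus strand (12724811 to 12918025, mean 2.04 FPKM) spans HF30379 and HF30376, and the counting is not stated to use strand, so reads of these genes cannot be told apart from those of that gene.

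The new gene on chromosome 13 varied among replicates together with HF30379 and with HF36240. Over the 27 libraries the new gene and HF30379 had a Pearson's r of 0.71 and a Spearman's rho of 0.70 on the log2(FPKM + 1) scale. Pearson's r was 0.65 without the 2 farthest libraries and 0.78 for deviations from the group means. For the new gene and HF36240, r was 0.33 over all libraries and 0.80 for deviations from the group means. HF30379 had an r of 0.76 with its neighbours HF30376 and HF30370 as well. Without the 2 farthest libraries r was 0.70 and 0.71, and for deviations from the group means it was 0.67 and 0.68. HF30376 and HF30370 had only 67 and 54 fragments over the 27 libraries, with no fragment in 12 and 14 of them. The coefficients share libraries and depth, and they are given as a description.

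Between SF and WF none of the 6 tested ribonuclease T2 genes was called. Of the 6 genes, 0 were called at EB, ES and LS in limma (adjusted p under 0.05 over all 29660 genes), against 7.59%, 8.14% and 3.35% of all genes. Among so few genes a count of 0 lies near these shares, and the other genes of the family were not tested. The 18 tests held 3 with an unadjusted p under 0.05, and limma voom on the recovered fragments called 0. These 3 were the new gene on chromosome 13 at EB, with a log2 fold change of -1.44 (95% interval -2.67 to -0.21, adjusted p = 0.148), HF30379 at EB at -1.93 (-3.82 to -0.04, adjusted p = 0.191), and HF42439 at LS at 0.79 (0.09 to 1.49, adjusted p = 0.27), or 0.56 without SF replicate 1 (adjusted p = 0.433). Without SF replicate 3 at EB, the new gene on chromosome 13 had -0.86 (adjusted p = 0.0972) and HF30379 had -1.07 (adjusted p = 0.187). Every log2 fold change given is one of log2(FPKM + 1), and it is smaller than the true change where levels are low. For HF36240 the 95% interval of SF against WF was -0.18 to 0.46 at EB, -0.26 to 0.39 at ES and -0.44 to 0.53 at LS. For HF30379 it was as wide as -2.87 to 1.66 at LS, which holds large differences in either direction.

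SF differed from Mr at every stage in HF36240. It was higher in SF by a log2 fold change of 0.74 ± 0.11 at EB (SE, adjusted p = 0.00354), 0.50 ± 0.08 at ES (adjusted p = 0.00425) and 0.66 ± 0.13 at LS (adjusted p = 0.0134). At LS, HF10711 was lower in SF, with a log2 fold change of -0.75 ± 0.20 (adjusted p = 0.0333), as was HF42439 with -1.42 ± 0.29 (adjusted p = 0.014). In all, 1, 1 and 3 of the 6 genes were called at EB, ES and LS, against 41%, 35.6% and 32.7% of all genes. Without SF replicate 1 and Mr replicate 2 at LS, the values were 0.69 for HF36240 (adjusted p = 0.0512), -1.04 for HF10711 (adjusted p = 0.0155) and -1.71 for HF42439 (adjusted p = 0.0334). HF36240 at LS also missed the threshold without SF replicate 2 (0.65, adjusted p = 0.055) and without Mr replicate 2 (0.63, adjusted p = 0.05). The call of HF10711 at LS was lost when any of SF replicates 2 and 3 or Mr replicates 1, 2 and 3 was left out, with log2 fold changes of -0.62 to -0.85 and adjusted p of 0.0535 to 0.109.

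WF differed from Mr at EB in 3 genes. HF36240 was higher in WF by 0.61 ± 0.08 (log2 fold change and SE, adjusted p = 0.00274), the new gene on chromosome 13 by 1.40 ± 0.28 (adjusted p = 0.012) and HF30379 by 2.85 ± 0.49 (adjusted p = 0.00665). At LS, HF42439 was lower in WF, with a log2 fold change of -2.22 ± 0.18 (adjusted p = 0.00282), and without Mr replicate 2 it was -2.27 (adjusted p = 0.0116). The counts of 3, 0 and 1 of 6 genes at EB, ES and LS stand against 35.3%, 24.9% and 22.9% of all genes. The count of 0 at ES was the same with limma voom, whereas 1 gene, HF36240, was called with scaling by total fragments, in 1 fit of all 9 groups and without WF replicate 2 at ES, and the 18 tests held 7 with an unadjusted p under 0.05. HF36240 had log2 fold changes of 0.44 at ES (adjusted p = 0.0654) and 0.62 at LS (adjusted p = 0.0839) against Mr, or 0.58 at LS without Mr replicate 2 (adjusted p = 0.205). Its values at ES and LS passed with scaling by total fragments (adjusted p of 0.0105 and 0.0271), in 1 fit of all 9 groups (0.0272 and 0.00189) and without WF replicate 2 of the stage (0.0444 and 0.0331). SF and WF were set against the same Mr libraries, so the 2 sets of differences are not independent.

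**Figure D3:**
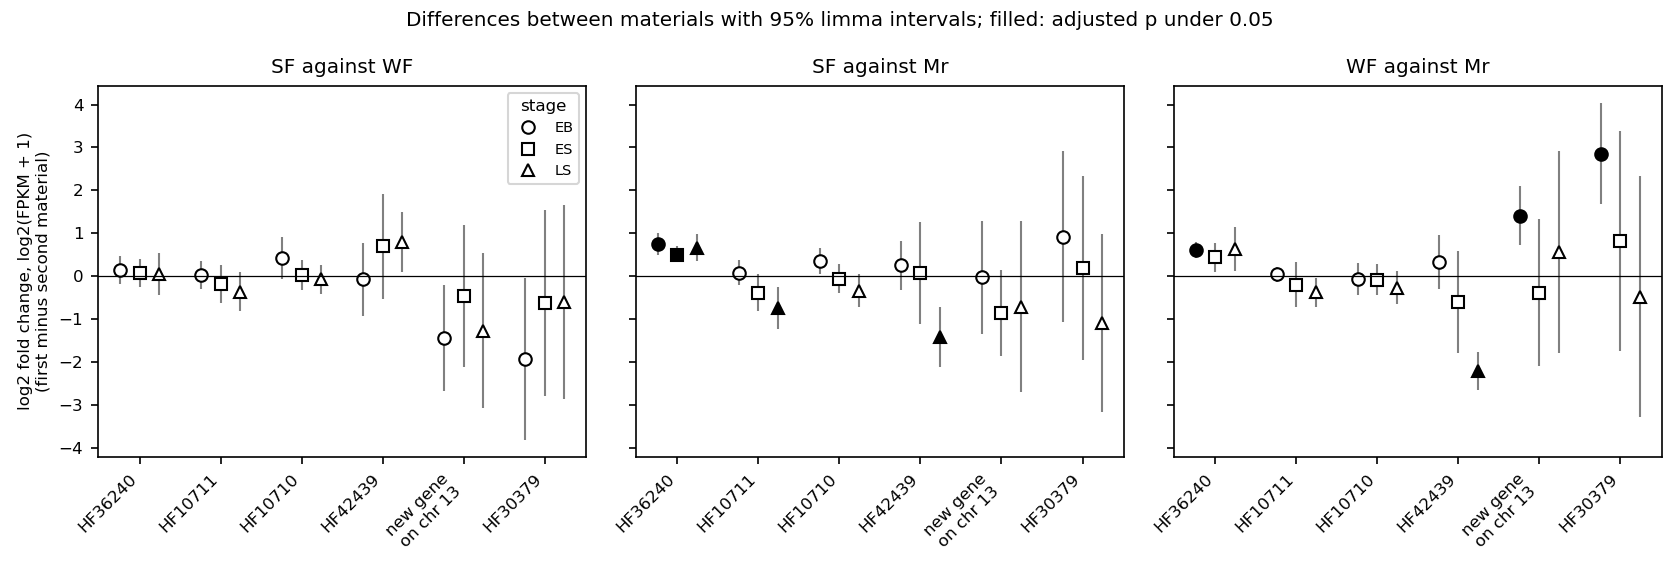
Log2 fold change on the log2(FPKM + 1) scale (y axis) of the 6 tested ribonuclease T2 genes (x axis) between materials at EB (circles), ES (squares) and LS (triangles). Bars are 95% intervals from limma and filled symbols passed an adjusted p under 0.05, which 0 of 18 did for SF against WF, 5 of 18 for SF against Mr and 4 of 18 for WF against Mr.

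Along flower development, these fits made calls in Mr only, in HF36240 and HF42439. HF36240 rose in Mr by 0.44 ± 0.06 at ES against EB (log2 fold change and SE, adjusted p = 0.0032) and by 0.44 ± 0.11 at LS against EB (adjusted p = 0.0203). With scaling by total fragments these changes were 0.25 (adjusted p = 0.00682) and 0.29 (adjusted p = 0.0342), and under that scaling the median of all genes at ES against EB in Mr was -0.13, against 0.00 as deposited. HF42439 rose in Mr by 1.69 ± 0.36 at ES against EB (adjusted p = 0.0151) and by 2.66 ± 0.15 at LS against EB (adjusted p = 0.000238), or 2.71 without Mr replicate 2 at LS (adjusted p = 0.00203). The call of HF42439 at ES was lost when any Mr library at EB was left out (adjusted p of 0.0507 to 0.0533), as was that of HF36240 at LS against EB (0.0572 to 0.0718). Without Mr replicate 2 at LS, the change of HF36240 at LS against EB was 0.47 (adjusted p = 0.0432). The 3 Mr libraries at EB lay within 1.10 FPKM SD for HF36240 and 0.176 FPKM SD for HF42439, whereas the SD of HF42439 was 14.4 FPKM at ES.

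The counts by stage stand against very unequal backgrounds. For ES against EB, 0, 0 and 2 of the 6 genes were called in SF, WF and Mr, against 0%, 1.65% and 41.9% of all genes. For LS against ES, 0 were called in each, against 19.3%, 0.964% and 0%. For LS against EB, 0, 0 and 2 were called, against 16.1%, 17.7% and 45.5%. Among the 18 tests of each family, 6, 3 and 6 had an unadjusted p under 0.05, and voom called 3, 0 and 2. Of all genes, 5411 had an unadjusted p under 0.05 in SF for ES against EB, where voom called 16, and 4494 had one in Mr for LS against ES, where voom called 0. Values that did not pass included a log2 fold change of HF42439 in SF of 1.52 at ES against EB (adjusted p = 0.168) and of 0.98 at LS against EB (adjusted p = 0.108). In SF at LS against EB, HF10710 had -0.56 (adjusted p = 0.0638), HF10711 -0.56 (adjusted p = 0.116) and HF36240 0.36 (adjusted p = 0.11). Without SF replicate 1 at LS, HF10711 passed with -0.75 (adjusted p = 0.0342), while HF10710 had -0.65 (adjusted p = 0.0508), HF36240 0.42 (adjusted p = 0.0925) and HF42439 0.75 (adjusted p = 0.2). Because a call in Mr and none in SF or WF does not show that the materials differ, the difference itself was tested for LS against EB, and it was not tested for ES against EB.

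The change of HF42439 at LS against EB was smaller in both progeny than in Mr. The difference in log2 fold change was -1.67 ± 0.40 for SF minus Mr (SE, adjusted p = 0.0204) and -2.54 ± 0.34 for WF minus Mr (adjusted p = 0.00257), the second being -2.59 without Mr replicate 2 at LS (adjusted p = 0.00734). For SF minus Mr, HF10711 (-0.82 ± 0.25, adjusted p = 0.0487) and HF10710 (-0.69 ± 0.21, adjusted p = 0.0475) passed narrowly as well, but each of these calls was lost in 9 of the 12 fits that left out 1 library. The call of HF10711 was kept without SF replicate 1 at EB or LS, or Mr replicate 2 at LS, and was lost without any other library (adjusted p of 0.061 to 0.109). That of HF10710 was kept without SF replicate 3 at EB, SF replicate 1 at LS or Mr replicate 3 at LS, and was lost otherwise (adjusted p of 0.0634 to 0.102). HF42439 for SF minus Mr lost its call without Mr replicate 2 at EB (-1.66, adjusted p = 0.053). Without SF replicate 1 and Mr replicate 2 at LS together, the 3 differences for SF minus Mr were -1.95 for HF42439, -1.11 for HF10711 and -0.81 for HF10710, with adjusted p of 0.015, 0.00623 and 0.0406. In all, 3 of 6 genes were called for SF minus Mr and 1 of 6 for WF minus Mr, against 16.3% and 10.5% of all genes. The count for SF minus Mr holds both HF10711 and HF10710, neighbours 38 bp apart whose levels varied together, so these calls are not independent. Whether they are parts of the same gene was not tested. For SF minus WF, 0 of 6 were called by limma or voom, against 0.169% of all genes, and over the 3 pairs 6 of 18 tests had an unadjusted p under 0.05. Beside these changes, the summed level of the chlorophyll a/b binding protein genes was 4421 to 5829 FPKM at EB and 6518 to 8201 FPKM at LS in SF. It was 4499 to 5155 FPKM at EB and 3704 to 5875 FPKM at LS in WF, while in Mr it was 7592 to 8190 FPKM at EB and 11432 to 15544 FPKM at LS. The median log2 fold change of the 39 tested genes of this list at LS against EB was 1.12 for SF, 0.49 for WF and 0.65 for Mr. From EB to LS the median summed level went from 4610 to 6669 FPKM in SF. It went from 4867 to 4636 FPKM in WF and from 7906 to 11769 FPKM in Mr. The part of tissue make-up in the results was not tested.

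The 4 members that failed the filter were close to the limit of detection, and they were not tested. Their levels rest on few fragments, and a library with no fragment allows up to 3, which covers counting error only. HF07516 (chromosome 16, 4932630 to 4940046) had 116 fragments over the 9 libraries at EB, then 74 at ES and only 11 at LS. At EB, 50 of them came from SF replicate 1, its highest library at 1.75 FPKM. HF35058 (unplaced sequence, 5772120 to 5772813, plus strand) ran the other way, with 1 fragment at EB, then 21 at ES and 46 at LS. Its highest group was WF at LS at 0.311, 0.831 and 0.937 FPKM. HF30376 (chromosome 15, 12838253 to 12839025) had 38 fragments at EB, then 20 at ES and 9 at LS, while its highest library was WF replicate 3 at EB at 0.914 FPKM. HF42438 (chromosome 13, 4708435 to 4710108) lies 2299 bp from the newly assembled gene, and 24 of its 30 fragments were in WF.

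**Figure D4:**
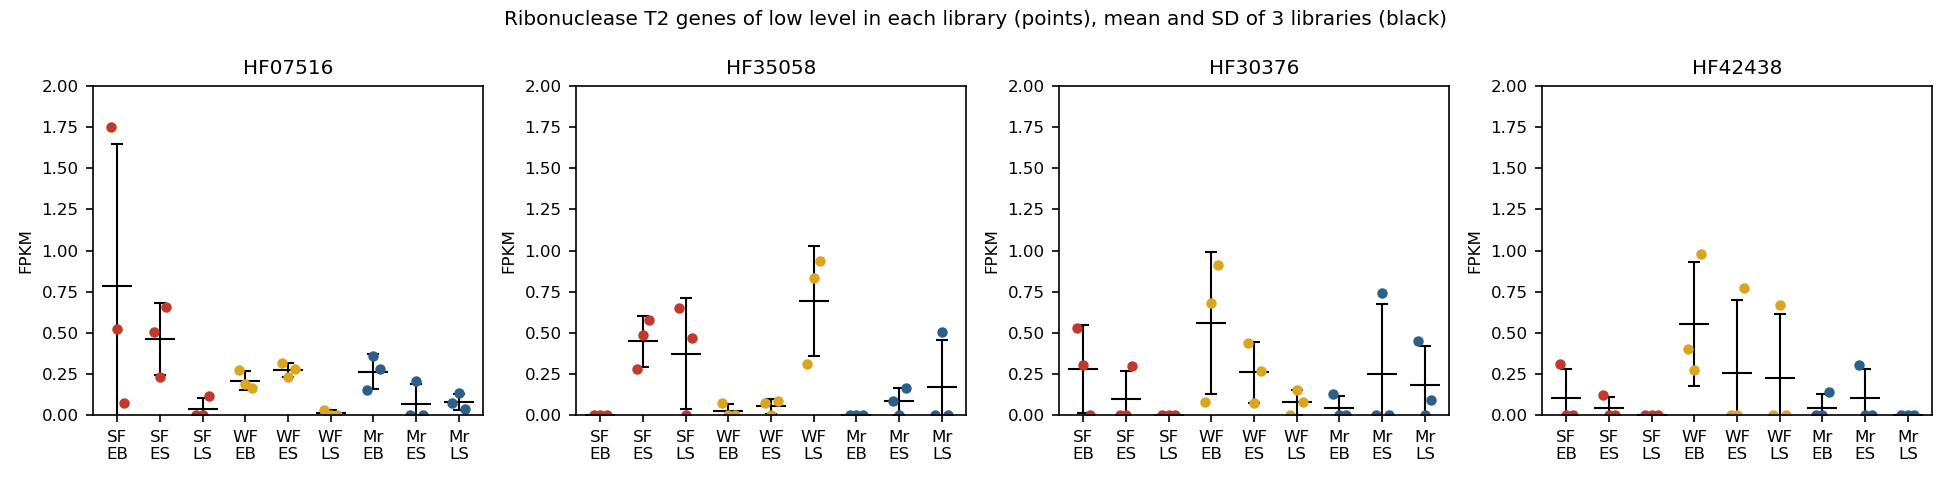
FPKM (y axis, 0 to 2) of the 4 members that failed the expression filter, by material and stage (x axis). Points are single libraries and black lines are the mean and SD of 3 libraries, cut at 0. No library exceeds 1.75 FPKM, and HF35058 is at 0 in all SF and Mr libraries at EB.

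In position, the 20 genes spread over 10 chromosomes, counting the unplaced sequence as 1. Chromosome 10 held 5, chromosome 13 held 4 and chromosome 15 held 3. On chromosome 13, HF42439, the newly assembled gene, HF42438 and HF42437 stand in a row on the minus strand, with gaps of 3167, 2299 and 182 bp. Their levels were far apart, since HF42439 averaged 21.4 FPKM, the newly assembled gene 8.79 FPKM, HF42438 0.147 FPKM, and HF42437 less than 0.1 FPKM. On chromosome 15, HF30379 lies 50546 bp from HF30376, which lies 122015 bp from HF30370, and only HF30379 passed the filter, with a mean of 8.21 FPKM.

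Some genes elsewhere had profiles close to those of the 3 most abundant members, by Pearson's r of log2(FPKM + 1) over 27 libraries. For HF36240 they were HF09671 with no described domain (0.944), HF04475, a gene of the GH3 auxin-responsive family (0.943), and HF11866, which has RNA recognition motifs (0.942). HF10711 was most like HF22751, a family 8 glycosyl transferase (0.88), HF06540, a protein kinase with EF hands (0.874), and HF32337, a sugar transporter (0.866). HF10710 was most like HF12393 and HF34193 of the Ras family (0.893 and 0.881) and HF17169, a patatin-like phospholipase (0.873). These are the highest of many coefficients and serve as a description only.

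Other nuclease and self-incompatibility families give the setting. The S1-P1 nucleases, which cut single-stranded RNA and DNA, had 7 genes, of which 4 were tested, and the highest was a newly assembled gene on chromosome 5 (45024138 to 45027802) at a mean of 26.2 FPKM. At EB, ES and LS, 1, 2 and 1 of them rose in SF against Mr and 0 fell, with median log2 fold changes of 0.53, 0.72 and 0.76, against 0.01, 0.01 and -0.03 for all genes, of which 41%, 35.6% and 32.7% were called. The ribonuclease III genes, whose enzymes cut double-stranded RNA, had 17 members led by HF41273 at 132 FPKM. Of 16 tested, 3 rose and 4 fell in SF against Mr at EB, where 41% of all genes were called. At ES 1 rose and 1 fell, and at LS 2 rose and 4 fell, against 35.6% and 32.7% of all genes called. The SPX domain genes, known for sensing phosphate, were led by HF12672 at 52.3 FPKM, and of 15 tested 7 rose and 1 fell in SF against Mr at ES, where the median was 0.45 and 35.6% of all genes were called. At EB 4 of the SPX genes rose and 0 fell, where 41% of all genes were called. At LS 0 rose and 0 fell, against 32.7% of all genes called, and the median of the SPX genes was -0.16.

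Of the 38 genes of the self-incompatibility S1 family, known from the self-incompatibility of poppy and unrelated to S-RNases, 7 were tested. HF01199 led them at 118 FPKM, and 1 rose and 1 fell in SF against Mr at EB, where the share of all genes called was 41% for this list and the next 2. Of 49 genes with F-box associated domains, 29 were tested, HF23850 led at 148 FPKM, and 9 rose and 3 fell in the same comparison. Of the 52 papain family protease genes, known for roles in senescence, 24 were tested, HF27388 led at 1282 FPKM, and 11 rose and 3 fell there. At ES and LS, 35.6% and 32.7% of all genes were called in SF against Mr. At these stages 4 and 6 papain family genes rose, and 4 and 4 fell. Of the F-box associated genes 4 and 5 rose, and 1 and 3 fell. Of the S1 family 1 and 1 rose, and 2 and 1 fell. The Ole e 1 pollen proteins were led by HF10388 at 1481 FPKM, and at LS against EB 8 of 27 fell in SF, 9 in WF and 12 in Mr, while 0, 0 and 1 rose, against 16.1%, 17.7% and 45.5% of all genes called. The median log2 fold changes of the Ole e 1 genes were -0.33, -0.59 and -0.74, against -0.01, 0.01 and 0.02 for all genes. In the same comparisons HF36240 had 0.36, 0.45 and 0.44, HF42439 had 0.98, 0.12 and 2.66, and HF10711 had -0.56, -0.17 and 0.26. HF10710 had -0.56, -0.06 and 0.13, the new gene on chromosome 13 had 0.19, 0.02 and 0.86, and HF30379 had -0.85 in SF, -2.17 in WF and a value above 0 in Mr. Of these 18 values, those of HF36240 and HF42439 in Mr passed.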

How the data were processed

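RNA of whole flowers was sequenced by the authors as 150 bp paired-end reads, mapped to the HFTH1 apple genome and deposited as FPKM for 48445 genes, with 1 column per library. The submitters' processing notes list StringTie 1.3.3b and DESeq2 1.16.1. Aligner and counter: not given in the sources used here. Lengths behind the FPKM are coding lengths for HF genes, since 98.1% are multiples of 3, so FPKM can be too high where reads of untranslated ends were counted.

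Members were the 10 genes of highest mean FPKM among those with a ribonuclease T2 description. The members and all gene lists were chosen with earlier results of these data known. All members were named. From each further list the gene of highest mean was named, and for the 3 highest members the 3 genes of highest Pearson's r.

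Tests used limma 3.58.1 in R 4.3.3 with an intensity trend on log2(FPKM + 1), over genes that reached an FPKM of 1 in 3 or more of 27 libraries, in fits that held only the groups compared, with Benjamini-Hochberg adjustment over 29660 genes and a threshold of 0.05. Differences between materials were interaction contrasts. The code was tested on simulated data. Fragments were recovered from FPKM, gene length and the step of each library, and 100% of 771080 values under 1000 fragments were within 0.05 of a whole number. They gave the depth and the input of limma voom. Nothing in the labels says how the 3 biological replicates of a group were separated, so p-values measure the spread between these flowers. Alternatives were a pseudocount of 0.1, no filter, 1 fit of all 9 groups, a replicate block, scaling by total fragments, voom, and each library left out in turn.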

Additional observations from a re-analysis of the deposited data

Results flagged for a closer look

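The change at LS against EB differed between materials, by an interaction contrast in limma, in 4 cases. For HF42439 SF had a log2 fold change of 0.98 at LS against EB, WF had 0.12 and Mr had 2.66, and the difference was -1.67 for SF minus Mr and -2.54 for WF minus Mr. The WF minus Mr difference passed under every alternative run, whereas the SF minus Mr difference had an adjusted p of 0.0511 in 1 fit of all 9 groups and of 0.053 without Mr replicate 2 at EB. For SF minus Mr, the difference was -0.82 for HF10711 and -0.69 for HF10710, the neighbours on chromosome 5. Their adjusted p-values in limma were 0.0487 and 0.0475, and with voom they were 0.0545 and 0.0522.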

How the results depend on the processing

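Of the results that name a gene, 34 were followed through the alternatives, and none of these reversed its direction. Of their 450 values, 390 kept their side of the threshold, 45 lost the call and 15 gained it. Other values named above were not followed in this way, such as 0.12 for HF42439 at LS against EB in WF. The call counts of SF against WF stayed at 0 under every alternative. With no filter, LS against ES gave 1 call in place of 0 and the difference between materials 2 in place of 4. In 1 fit of all 9 groups, LS against ES gave 1 call and LS against EB gave 5 in place of 2, while the new gene on chromosome 13 lost its call for WF against Mr at EB (adjusted p = 0.184). Scaling by total fragments gave 2 calls for the difference between materials, as did voom. Scaling by total fragments also gave 6 calls for WF against Mr in place of 4, and 1 fit of all 9 groups gave 5. Over all genes, the median under that scaling was 0.12 for WF against Mr at ES, -0.13 for ES against EB in Mr and -0.09 for LS against EB in Mr. With each library left out in turn, the calls ranged from 0 to 0 for SF against WF, 3 to 7 for SF against Mr, 4 to 5 for WF against Mr, 1 to 4 for ES against EB, 0 to 2 for LS against ES, 1 to 3 for LS against EB and 1 to 4 for the difference between materials. The 3 calls for SF against Mr came without SF replicate 2 or Mr replicate 2 at LS, and the 1 call for ES against EB and for LS against EB without any 1 of the Mr libraries at EB. ES against EB had 4 calls without Mr replicate 3 at ES, LS against ES had 2 without SF replicate 1 at LS, and the difference between materials had 1 without Mr replicate 2 at EB.

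Libraries with the same number were not paired, since in none of the 18 comparisons were all 3 correlations of their deviations over 0.1. With the replicate number as a block, SF against Mr had 4 calls in place of 5, HF36240 at LS having an adjusted p of 0.0517, and the difference between materials had 3 in place of 4, HF10711 having 0.0634. It changed no other call.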
